A study of Mus musculus with 16 samples.

Results

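The 10 genes described here encode ligands, binding proteins and receptors of the myostatin, activin and TGF-beta signalling system, and they were taken by gene symbol from a table of 29730 genes counted by RNA sequencing in mouse skeletal muscle. The ligands were *Mstn*, *Gdf11*, *Inhba*, *Tgfb1*, *Tgfb2* and *Tgfb3*, the secreted binding proteins were *Fst* and *Fstl1*, and the receptors were *Acvr2a* and *Acvr2b*. All 10 genes were in the table and all 10 passed the filter on low counts, which left 14960 genes for testing.

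The muscle was the tibialis anterior, at the front of the lower leg, taken from male mice at 7 weeks of age on a strain labelled C57BL/6N. Each of the 4 groups held 4 samples. WT_PBS samples came from wild-type mice given saline (PBS), and WT_ASO samples from wild-type mice injected with ASO1, an antisense oligonucleotide. KO_PBS and KO_ASO samples came from Bin1mck-/- mice given saline and ASO1, respectively, a line that the series describes as a model of recessive centronuclear myopathy. *Bin1* encodes amphiphysin 2, a protein that curves membranes, and *Dnm2* encodes dynamin 2, a GTPase that cuts membranes and whose RNA ASO1 was made to lower. The sources used here do not give what mck stands for, which part of *Bin1* was deleted, the dose or the injection schedule, and no oligonucleotide with an unrelated sequence was among the samples. The labels do not tie each sample to 1 named mouse, so P values measure the spread between these samples.

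Myostatin, GDF11, the activins and the TGF-betas are secreted dimers that bind a type II receptor, which then activates a type I receptor and the transcription factors SMAD2 and SMAD3. Myostatin is made by muscle fibres and limits muscle mass, activins act through the same type II receptors, and TGF-betas promote the deposition of extracellular matrix. Follistatin binds myostatin and activins outside the cell and keeps them from their receptors.

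Library totals ran from 27591900 to 40862854 counts, and log2 counts of samples in a group had Pearson correlations of 0.974 to 0.988 across genes, which are not independent replicates. Levels are given as CPM, read counts scaled to a common library size after TMM normalization. *Bin1* was 495 ± 40.6 CPM (SD, n = 4) in WT_PBS, 539 ± 58.8 in WT_ASO, 44.9 ± 3.27 in KO_PBS and 35.5 ± 5.24 in KO_ASO. *Dnm2* was 56.1 ± 5.51 CPM in WT_PBS and 62.8 ± 3.63 in KO_PBS, and 25.6 ± 2.72 in WT_ASO and 24.8 ± 4.48 in KO_ASO. Both genes thus stood in every group as the labels say. Defining fibre genes such as *Acta1* and *Ckm* were at high levels in all groups, and the 8 fibre markers together held 146942 to 274268 CPM per sample.

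Between the saline groups, 3 of the 10 genes were differentially expressed genes (DEGs), defined by an adjusted P value under 0.05 in edgeR, and all of them were higher in KO_PBS. They were the antagonist gene *Fst*, at 2.72 times the WT_PBS level, the ligand gene *Tgfb1*, at 2.10 times, and *Fstl1*, at 2.05 times. DEGs made up 12.6% of all genes tested in this comparison and DEGs higher in KO_PBS 7.43%. The median log2 fold change (log2FC) of the 10 genes was 0.02, and that of all genes was -0.01. *Mstn* was lower in all 4 KO_PBS samples than in any WT_PBS sample, but did not pass the threshold. With ASO1 given to Bin1mck-/- mice, none of the 10 genes was a DEG against KO_PBS, where 3.64% of all genes were. DESeq2 called *Fst* and *Mstn* in that comparison, limma-voom called *Tgfb1* and *Mstn*, and 3 of the 10 genes had an unadjusted edgeR P under 0.05. Over all genes fitted, the shares were 3.52% by DESeq2, 7.95% by limma-voom and 17.7% at an unadjusted edgeR P under 0.05. *Mstn* was higher in each KO_ASO sample than in any KO_PBS sample, and *Fst* was lower in each.

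**Figure D1:**
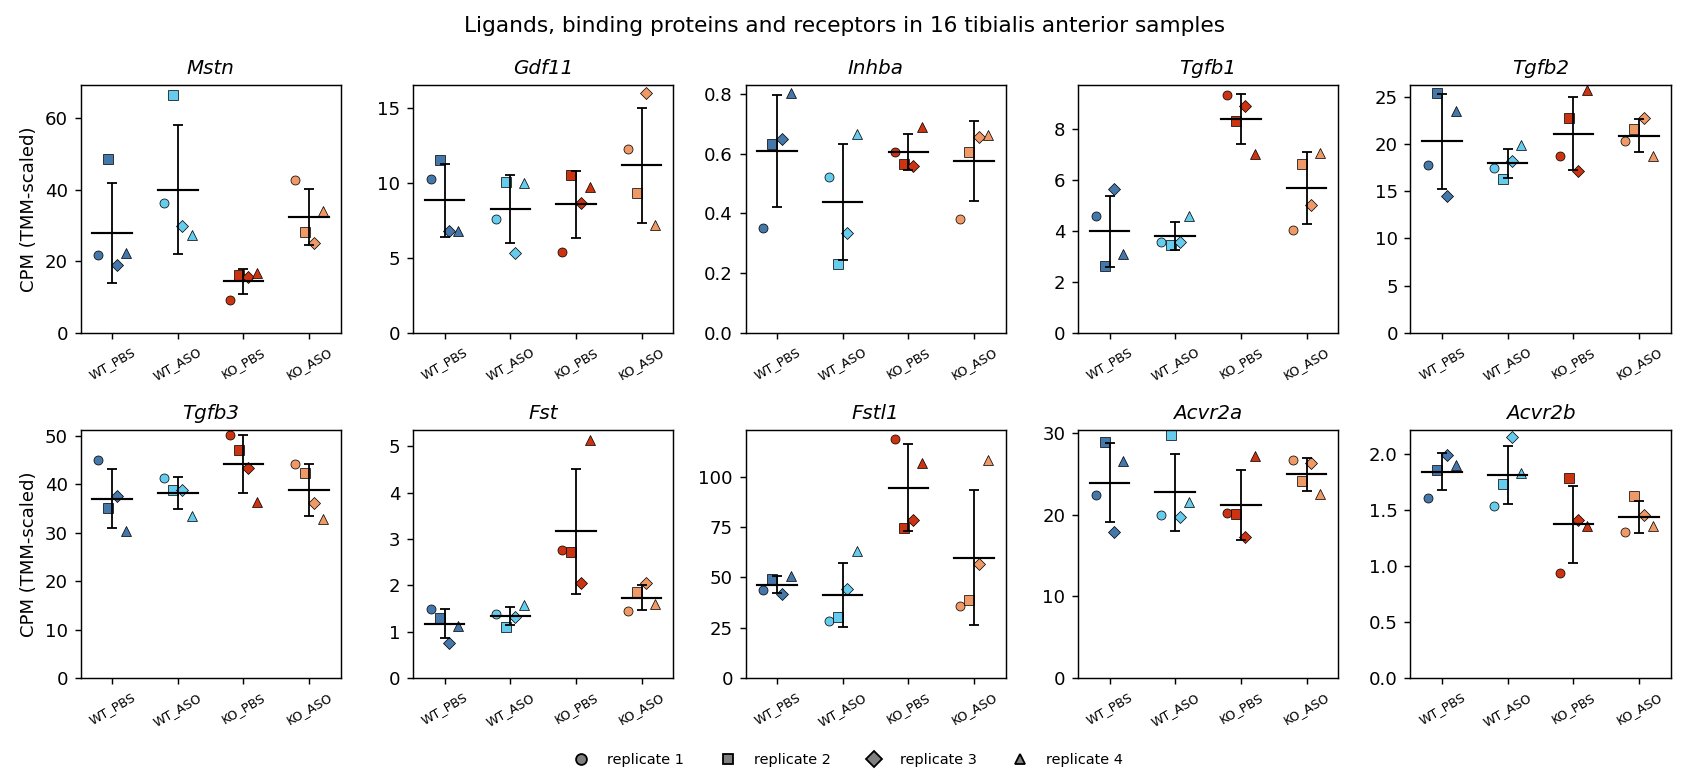
Levels of the 10 genes in CPM (linear axis) in each of the 16 samples by group, with the replicate number given by the symbol, the group mean by a horizontal line and the SD (n = 4) by error bars. The KO_PBS points of *Tgfb1*, *Fst* and *Fstl1* lie above all WT_PBS points, and those of *Mstn* lie below them.

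The upstream sequences of *Mstn* and *Tgfb1* are shown because these are the ligand genes whose KO_PBS and WT_PBS samples did not overlap, *Mstn* being lower and *Tgfb1* higher. RefSeq windows of 250 bases before the annotated start were found for 8 of the 10 genes on GRCm38.p6, and *Fst* and *Tgfb3* were not among them. Capitals mark CANNTG, the E-box bound by myogenic factors such as MyoD, searched on both strands, each of which reads the same motif. The *Mstn* window is chr1:53061390-53061639 on the plus strand, and the *Tgfb1* window is chr7:25686752-25687001 on the plus strand.
Mstn: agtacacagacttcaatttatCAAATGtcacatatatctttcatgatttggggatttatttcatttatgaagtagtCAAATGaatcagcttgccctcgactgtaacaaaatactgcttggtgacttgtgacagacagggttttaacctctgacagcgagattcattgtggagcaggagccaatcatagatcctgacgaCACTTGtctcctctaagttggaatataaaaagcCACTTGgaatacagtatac
Tgfb1: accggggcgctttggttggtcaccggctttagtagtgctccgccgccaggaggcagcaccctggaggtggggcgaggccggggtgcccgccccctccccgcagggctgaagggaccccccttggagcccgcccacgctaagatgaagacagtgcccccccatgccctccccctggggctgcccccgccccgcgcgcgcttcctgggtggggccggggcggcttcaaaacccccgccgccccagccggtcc
The *Mstn* window held 4 CANNTG matches and had a GC content of 38.4%. The *Tgfb1* window held 0 matches and had a GC content of 75.2%. Of 32851 mouse promoter windows of the same length, 66.2% held at least 1 match, with a mean of 1.16, and 3.84% held 4 or more. TATAAA, the core of a TATA box, was found once in the *Mstn* window on either strand and is present in 12.4% of all windows. The windows of *Gdf11*, *Inhba* and *Tgfb2* held it as well. CAGAC, a sequence that SMAD3 and SMAD4 can bind, was found 2 times in the *Mstn* window and in 42.2% of all windows, and not in that of *Tgfb1*. It was also found in the windows of *Tgfb2*, *Acvr2a* and *Acvr2b*. These matches describe letters in the windows and do not show a bound site.

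Per length, the genes differed widely in level in WT_PBS. *Tgfb3* stood at 10.95 ± 1.81 CPM per kilobase of exon (SD, n = 4), *Mstn* at 10.3 ± 5.15 and *Fstl1* at 9.42 ± 0.868, and neighbours in this order overlapped between samples. *Acvr2a* at 4.22 ± 0.857, *Tgfb2* at 3.50 ± 0.873 and *Gdf11* at 2.18 ± 0.601 CPM per kilobase followed, again with overlap from each gene to the next. *Tgfb1* at 0.792 ± 0.275, *Acvr2b* at 0.469 ± 0.0424, *Fst* at 0.255 ± 0.0686 and *Inhba* at 0.0953 ± 0.0294 CPM per kilobase did not overlap with the next gene in the order, and *Gdf11* and *Tgfb1* did not overlap either. *Mstn* was thus above 82.7% of the tested genes in level per length, and *Inhba* above 6.47%.

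*Mstn* (ENSMUSG00000026100, GRCm38 chr1:53061640-53068079, plus strand) was measured at 21.8, 48.7, 19.0 and 22.2 CPM in WT_PBS replicates 1 to 4. In KO_PBS it was 9.24, 16.1, 15.6 and 16.8 CPM. The groups did not overlap, and replicate 2 of WT_PBS lay far above the other samples of its group. The log2FC of KO_PBS against WT_PBS was -0.94 (SE 0.33, 95% interval -1.60 to -0.29), with an edgeR adjusted P of 0.0772 and a two-sided exact permutation P of 0.0286, the smallest that 4 against 4 samples allow. Without replicate 2 of WT_PBS the log2FC was -0.54 with an edgeR adjusted P of 0.273, and DESeq2 gave an adjusted P of 0.0246 on all samples. The groups were separate for 4 of the 10 genes in this comparison and for 20.4% of all genes tested.

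In KO_ASO, *Mstn* was measured at 42.8, 28.2, 25.0 and 33.9 CPM. Every one of these values exceeded the highest KO_PBS value. The log2FC of KO_ASO against KO_PBS was 1.17 (SE 0.34, 95% interval 0.51 to 1.83), which is 2.25 times the KO_PBS level, with an edgeR adjusted P of 0.0683 and an exact permutation P of 0.0286. The groups were separate for 2 of the 10 genes here, *Mstn* and *Fst*, and for 10.4% of all genes. With library totals as the only scaling they were separate for 3, *Tgfb1* being the third, and for 12.1% of all genes. The *Mstn* difference passed the threshold in 4 of 15 alternative analyses, with adjusted P values of 0.00713 by DESeq2, 0.0409 by limma-voom, 0.0292 with only these groups fitted and 0.0443 with a block for replicate number. Its highest adjusted P was 0.218, without replicate 1 of KO_PBS. KO_PBS enters both this comparison and that between genotypes, so opposite signs in them share 1 set of samples and are not independent.

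In WT_ASO, *Mstn* was measured at 36.3, 66.4, 29.8 and 27.5 CPM, a range that overlapped with WT_PBS. Replicate 2 was the highest *Mstn* sample of this group, as in WT_PBS. The log2FC against WT_PBS was 0.52 (SE 0.33, edgeR adjusted P = 0.838), and single samples moved it to 0.16 (without replicate 2 of WT_ASO) or 0.93 (without replicate 2 of WT_PBS). The difference between the ASO1 effects in the genotypes, the interaction, was 0.64 (SE 0.47, 95% interval -0.27 to 1.56, edgeR adjusted P = 0.628), so that the effect of ASO1 on *Mstn* was not shown to differ between genotypes. Without replicate 2 of WT_PBS the interaction was 0.24, and without replicate 2 of WT_ASO 1.005. The log2FC of KO_ASO against WT_PBS was 0.22 (SE 0.33, 95% interval -0.42 to 0.87, edgeR adjusted P = 0.922), and it was 0.061 without replicate 1 of KO_ASO and 0.63 without replicate 2 of WT_PBS.

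Some markers of muscle fibres also differed between the saline groups. The 8 fibre markers summed to 187555 to 234198 CPM in WT_PBS, 199881 to 274268 in WT_ASO, 146942 to 168969 in KO_PBS and 166984 to 189182 in KO_ASO, with none at 0 counts. In KO_PBS 3 of the 8 (*Atp2a1*, *Pvalb* and *Tnnt3*) were called lower against WT_PBS by edgeR and 0 higher. The log2FCs of the 8 ran from -0.73 to 0.35, so not all of them were lower. In KO_ASO against KO_PBS 0 of the 8 were called, and the sums of these groups overlapped. The part of fibre content in the *Mstn* values was not tested. In whole muscle, fewer cells of a type and less RNA per cell cannot be told apart.

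*Gdf11* (ENSMUSG00000025352, chr10:128882295-128891718, minus strand) encodes the ligand closest to myostatin in sequence. It was measured at 10.3, 11.5, 6.77 and 6.79 CPM in WT_PBS and at 5.40, 10.5, 8.68 and 9.74 in KO_PBS. KO_ASO values were 12.3, 9.33, 16.02 and 7.18 CPM, and WT_ASO values ran from 5.31 to 10.1. All groups overlapped. The log2FC was -0.04 (95% interval -0.58 to 0.50) for KO_PBS against WT_PBS and 0.38 (95% interval -0.15 to 0.92) for KO_ASO against KO_PBS. The latter was 0.16 without replicate 3 of KO_ASO, its highest sample, and 0.21 without replicate 1 of KO_PBS.

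*Inhba* (ENSMUSG00000041324, chr13:16011851-16031621, plus strand) encodes the subunit of which activin A is made. It was the lowest of the 10 genes, with 8 to 32 counts and 0.231 to 0.802 CPM per sample. Group means were 0.609 ± 0.188 CPM in WT_PBS, 0.439 ± 0.194 in WT_ASO, 0.606 ± 0.0598 in KO_PBS and 0.577 ± 0.133 in KO_ASO (SD, n = 4). The log2FC between the saline groups was -0.01 with an SE of 0.31 (95% interval -0.63 to 0.61), an interval wide enough to hold a difference in either direction.

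*Tgfb1* (ENSMUSG00000002603, chr7:25687002-25705077, plus strand) was measured at 4.59, 2.64, 5.65 and 3.08 CPM in WT_PBS. In KO_PBS it was 9.35, 8.33, 8.92 and 7.05 CPM. All KO_PBS samples were above all WT_PBS samples. *Tgfb1* rose by a log2FC of 1.07 (SE 0.22, 95% interval 0.640 to 1.497, edgeR adjusted P = 0.0046), and it remained a DEG in 15 of 15 alternative analyses. KO_ASO values were 4.05, 6.65, 5.02 and 7.07 CPM, of which the highest exceeded the lowest KO_PBS value (7.073 against 7.051). With library totals as the only scaling these groups did not overlap, and the exact permutation P was 0.0286 in place of 0.0571. The log2FC of KO_ASO against KO_PBS was -0.56 (SE 0.22, edgeR adjusted P = 0.168), and limma-voom gave an adjusted P of 0.0272. WT_ASO values were 3.57, 3.47, 3.58 and 4.61 CPM, within the WT_PBS range. The interaction was -0.49 (SE 0.31, edgeR adjusted P = 0.558).

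*Tgfb2* and *Tgfb3* encode the other two TGF-betas. *Tgfb2* (ENSMUSG00000039239, chr1:186622792-186705989, minus strand) ran from 14.5 to 25.7 CPM over all samples, with log2FCs of 0.06 (95% interval -0.25 to 0.36) for KO_PBS against WT_PBS and -0.02 (95% interval -0.32 to 0.29) for KO_ASO against KO_PBS. *Tgfb3* (ENSMUSG00000021253, chr12:86056745-86079041, minus strand) was 37.1 ± 6.11 CPM in WT_PBS, 38.2 ± 3.31 in WT_ASO, 44.3 ± 5.96 in KO_PBS and 38.9 ± 5.30 in KO_ASO (SD, n = 4). Its log2FC between the saline groups was 0.26 (SE 0.13, edgeR adjusted P = 0.206) and passed the threshold with library totals as the only scaling (0.0446) and with the replicate block (0.0198). *Tgfb2* and *Tgfb3* overlap genes on the other strand, and the sources used here do not say whether the counting used the strand.

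**Figure D2:**
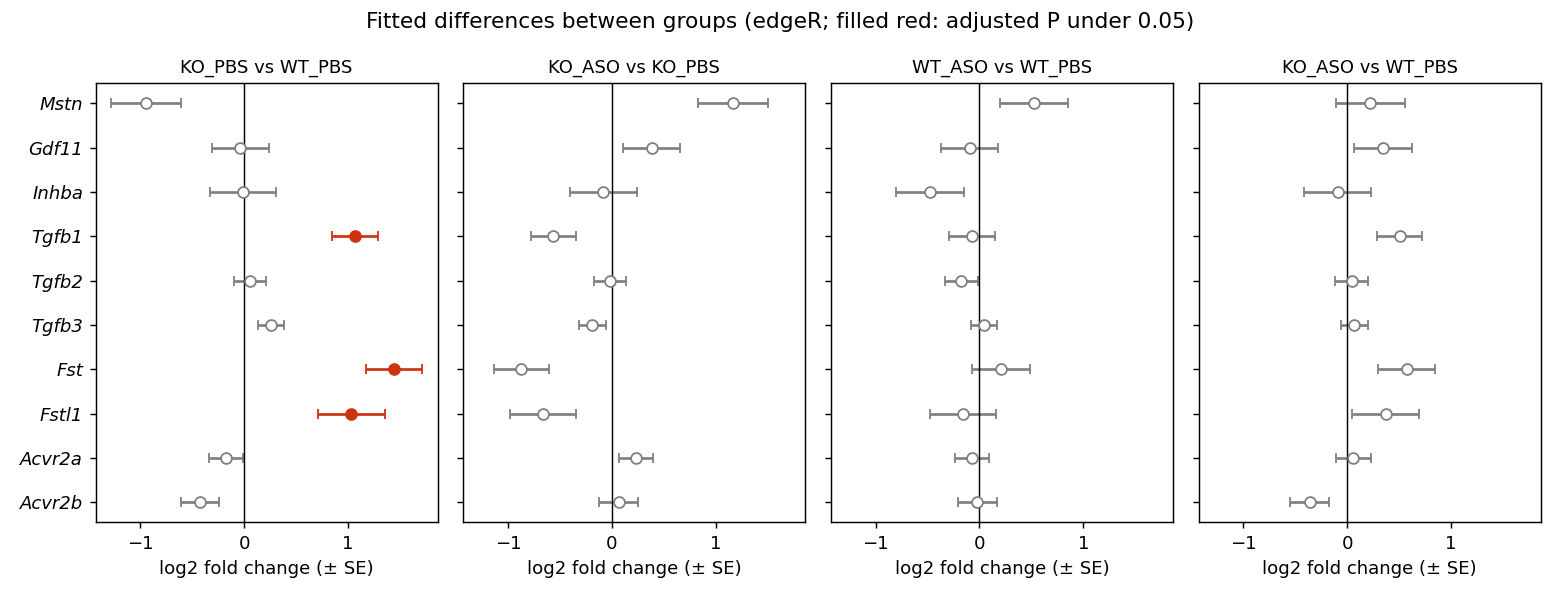
Fitted log2 fold changes (points) with their standard errors (bars) for the 10 genes in the comparisons named above each panel. Red points mark an edgeR adjusted P under 0.05, which *Tgfb1*, *Fst* and *Fstl1* reached in KO_PBS against WT_PBS and no gene reached in the other panels.

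*Fst* (ENSMUSG00000021765, chr13:114452290-114458951, minus strand) was measured at 1.49, 1.30, 0.752 and 1.13 CPM in WT_PBS, from 29 to 51 counts per sample. In KO_PBS it was 2.76, 2.72, 2.05 and 5.13 CPM, from 84 to 208 counts. The lowest KO_PBS sample was above the highest WT_PBS sample. *Fst* rose by a log2FC of 1.44 (SE 0.27, 95% interval 0.92 to 1.97, edgeR adjusted P = 0.0024), the largest of the 10 genes, and it was a DEG in 15 of 15 alternative analyses.

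In KO_ASO, *Fst* was measured at 1.44, 1.85, 2.04 and 1.60 CPM. These values lay just below the KO_PBS range, the highest being 2.042 against a lowest KO_PBS value of 2.048. The log2FC was -0.87 (SE 0.26, 95% interval -1.38 to -0.36), with an edgeR adjusted P of 0.0765 and an exact permutation P of 0.0286. DESeq2 called it with an adjusted P of 0.0312, and edgeR gave 0.0377 without replicate 3 of KO_PBS and 0.229, at a log2FC of -0.54, without replicate 4, the sample with the highest *Fst*. WT_ASO values were 1.37, 1.099, 1.31 and 1.58 CPM and overlapped with WT_PBS (log2FC 0.21, SE 0.28). The interaction was -1.07 (SE 0.38, 95% interval -1.82 to -0.33), with an edgeR adjusted P of 0.236 where 0.575% of all genes were called. KO_ASO overlapped with WT_PBS, and the log2FC between them was 0.57 (SE 0.27) at an edgeR adjusted P of 0.614.

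Because follistatin binds myostatin, the reads of both genes were also set against each other within a sample, a ratio chosen after the values were seen and given without a test. In WT_PBS there were 6.85, 2.68, 3.97 and 5.07 *Fst* reads per 100 *Mstn* reads. In KO_PBS there were 29.9, 16.9, 13.1 and 30.5, so each KO_PBS sample stood above every sample of the other groups. KO_ASO samples had 3.36, 6.57, 8.17 and 4.73 and WT_ASO samples 3.78, 1.66, 4.38 and 5.77 *Fst* reads per 100 *Mstn* reads. Group means were 4.64 ± 1.77 in WT_PBS, 3.90 ± 1.71 in WT_ASO, 22.6 ± 8.91 in KO_PBS and 5.71 ± 2.10 in KO_ASO (SD, n = 4). The ratio does not depend on library scaling, is not corrected for transcript length and says nothing of protein amounts.

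**Figure D3:**
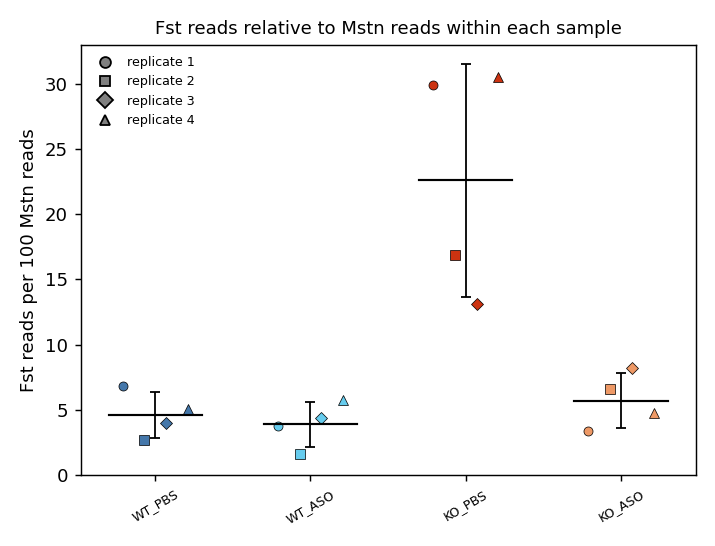
*Fst* reads per 100 *Mstn* reads in each of the 16 samples (linear axis) by group, with the replicate number given by the symbol, the group mean by a horizontal line and the SD (n = 4) by error bars. The KO_PBS samples lie between 13.1 and 30.5, and the other 12 samples between 1.66 and 8.17.

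*Fstl1* (ENSMUSG00000022816, chr16:37776873-37836514, plus strand) encodes a secreted glycoprotein with a follistatin-type domain that is made by fibroblasts and other mesenchymal cells. It was measured at 43.6, 49.1, 41.8 and 50.6 CPM in WT_PBS and at 118.6, 74.4, 78.6 and 107 CPM in KO_PBS. The groups did not overlap. *Fstl1* rose by a log2FC of 1.03 (SE 0.32, 95% interval 0.40 to 1.66, edgeR adjusted P = 0.0483), a value close to the threshold. The call was lost without a filter on low counts (0.14) and when any 1 of the 8 samples of these groups was left out (0.0528 to 0.143), although the log2FC stayed between 0.89 and 1.19 over all alternatives.

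KO_ASO values of *Fstl1* were 35.7, 38.5, 56.6 and 108.5 CPM, with 3 samples below the KO_PBS range and replicate 4 inside it. The log2FC against KO_PBS was -0.66 (SE 0.32, edgeR adjusted P = 0.301), and without replicate 4 of KO_ASO it was -1.12 (edgeR adjusted P = 0.0244). WT_ASO values were 28.4, 30.4, 44.0 and 63.0 CPM. The SD was 15.9 CPM in WT_ASO, 33.8 in KO_ASO and 21.5 in KO_PBS, and all of these groups spread more widely than WT_PBS, with 4.26.

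Some markers of other cell types also differed between groups. The 7 fibroblast markers summed to 777 to 1054 CPM in WT_PBS, 362 to 1259 in WT_ASO, 1062 to 1805 in KO_PBS and 427 to 1397 in KO_ASO. In KO_PBS 4 of the 7 (*Dcn*, *Dpt*, *Pdgfra* and *Pi16*) were called higher against WT_PBS, and in KO_ASO *Dcn* was called lower against KO_PBS. The 8 macrophage markers summed to 26.0 to 47.1 CPM in WT_PBS, 31.7 to 61.5 in WT_ASO, 75.2 to 183.7 in KO_PBS and 29.7 to 52.7 in KO_ASO. All 8 were called higher in KO_PBS against WT_PBS, and 5 of the 8 lower in KO_ASO against KO_PBS. No marker of either list was at 0 counts in any group. Macrophages and fibroblasts both make TGF-beta 1, and the part of these cells in the *Tgfb1*, *Fst* and *Fstl1* values was not tested. Of 6 markers of muscle stem cells and myoblasts, 4 (*Pax7*, *Myf5*, *Calcr* and *Vcam1*) fell and 1 (*Myog*, a gene of differentiating myoblasts) rose in KO_PBS, and their sum was 23.8 to 29.6 CPM in WT_PBS and 26.4 to 45.7 in KO_PBS. Of 5 tendon markers, *Scx*, a transcription factor gene of tendon cells, rose in KO_PBS (log2FC 2.24, SE 0.32, edgeR adjusted P = 0.000299) and fell in KO_ASO against KO_PBS (log2FC -1.31, SE 0.30, edgeR adjusted P = 0.0277). The tendon markers summed to 43.9 to 110.2 CPM in WT_PBS, 63.7 to 149.6 in KO_PBS and 13.8 to 119.5 in KO_ASO. Of 5 smooth muscle and pericyte markers, *Myh11* fell and *Cspg4* rose in KO_PBS, with log2FCs of -0.45 and 0.61, and 0 were called by edgeR in KO_ASO against KO_PBS.

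**Figure D4:**
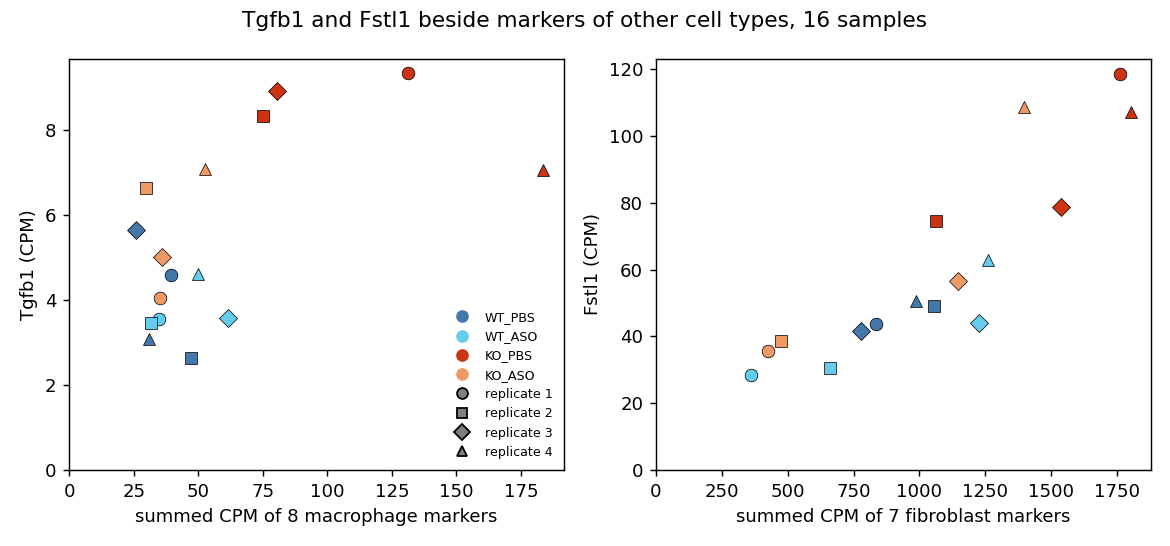
*Tgfb1* against the sum of 8 macrophage markers (left) and *Fstl1* against the sum of 7 fibroblast markers (right), all in CPM, for each of the 16 samples coloured by group. KO_PBS samples have the highest macrophage sums, 75.2 to 183.7 CPM, and *Tgfb1* of 7.05 to 9.35 CPM. Within KO_PBS the highest macrophage sum and the lowest *Tgfb1* belong to the same sample, replicate 4. KO_ASO samples have macrophage sums of 29.7 to 52.7 CPM and *Tgfb1* of 4.05 to 7.07 CPM.

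The type II receptor genes were not DEGs in any comparison. *Acvr2a* (ENSMUSG00000052155, chr2:48814109-48903269, plus strand) ran from 17.3 to 29.8 CPM over all samples, with log2FCs of -0.17 (95% interval -0.50 to 0.15) for KO_PBS against WT_PBS and 0.23 (95% interval -0.09 to 0.56) for KO_ASO against KO_PBS. Its exons overlap those of *Orc4* on the other strand, a gene with a mean of 614 counts. *Acvr2b* (ENSMUSG00000061393, chr9:119402118-119434995, plus strand) was 1.84 ± 0.166 CPM in WT_PBS, 1.82 ± 0.258 in WT_ASO, 1.37 ± 0.347 in KO_PBS and 1.44 ± 0.143 in KO_ASO (SD, n = 4). Its log2FC between the saline groups was -0.43 (SE 0.19, 95% interval -0.79 to -0.06), with an edgeR adjusted P of 0.151 and an exact permutation P of 0.0571. In KO_ASO against KO_PBS it was 0.06 (SE 0.19), so the lower mean was seen in both Bin1mck-/- groups, although neither passed the test against wild type.

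In the comparisons that do not use KO_PBS, 0 of the 10 genes were DEGs by edgeR, DESeq2 or limma-voom. The shares of all genes called by edgeR were 0.00668% for WT_ASO against WT_PBS, 0.0401% for KO_ASO against WT_PBS and 0.0735% for KO_ASO against WT_ASO. In the same order edgeR called 1, 6 and 11 genes, limma-voom 1, 7 and 2, and DESeq2, fitted to more genes, 35, 87 and 402. At an unadjusted edgeR P under 0.05 there were 0, 1 and 1 of the 10 genes, respectively, and 6.45%, 8.22% and 15.1% of all genes. No groups were separate for any of the 10 genes in these comparisons, where 3.22%, 5.39% and 6.97% of all genes were.

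The other genes of the system were examined by fixed lists, with 68 genes tested. In KO_PBS against WT_PBS, the secreted regulators had 7 higher and 0 lower of 18 tested by edgeR, with a median log2FC of 0.17, where 12.6% of all genes were called and 7.43% called higher. DESeq2 and limma-voom each called 7 of the 18, where they called 8.34% and 18.0% of all genes. *Fstl3*, which like follistatin binds activin and myostatin, rose from 0.7004 ± 0.206 CPM in WT_PBS to 2.08 ± 0.507 in KO_PBS (log2FC 1.54, SE 0.24, edgeR adjusted P = 0.000691). *Ltbp3*, which anchors latent TGF-beta in the matrix, rose from 63.2 ± 8.98 to 108.2 ± 9.86 CPM (log2FC 0.78, SE 0.12, edgeR adjusted P = 0.000705). *Ltbp2*, a relative that binds elastic fibres and not latent TGF-beta, rose from 0.551 ± 0.223 to 2.76 ± 2.63 CPM (log2FC 2.30, SE 0.50, edgeR adjusted P = 0.00678). Replicate 1 of KO_PBS held 6.70 CPM of *Ltbp2*, far above the other samples of its group, and without it the log2FC was 1.38 (edgeR adjusted P = 0.0188). The other 4 called, named after their values were seen, were *Ltbp1*, *Thbs1*, an activator of latent TGF-beta, *Pcsk5*, a convertase, and *Dcn*, a TGF-beta binding proteoglycan that is also among the fibroblast markers. Fibroblast and macrophage markers were also called higher in KO_PBS (4 of 7 and 8 of 8), and their part in the values of this list was not tested.

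With ASO1 in Bin1mck-/- mice, 3 of the 18 secreted regulators fell against KO_PBS and 0 rose by edgeR, which called 3.64% of all genes. DESeq2 called 6 of the 18 and limma-voom 4, beside 3.52% and 7.95% of all genes. *Ltbp2* fell by 2.58 on the log2 scale (SE 0.51, edgeR adjusted P = 0.0114) to 0.461 ± 0.164 CPM, and by 1.66 without replicate 1 of KO_PBS (edgeR adjusted P = 0.0206). The call was lost with only the groups compared fitted (0.0692). *Ltbp1* and *Dcn* were the others, named after their values were seen. *Fstl3* stood at 1.41 ± 0.0881 CPM in KO_ASO, with a log2FC of -0.56 against KO_PBS and an edgeR adjusted P of 0.206.

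Of 7 other ligand genes 3 were tested and 0 were called between the saline groups by edgeR, DESeq2 or limma-voom, with 0 at an unadjusted P under 0.05. *Inha*, which encodes the inhibin alpha subunit, rose in KO_ASO against KO_PBS from 5.09 ± 0.436 to 11.4 ± 1.64 CPM (log2FC 1.17, SE 0.28, edgeR adjusted P = 0.0348). The call was lost without a filter on low counts (0.092) and when any 1 of the 8 samples was left out (0.0547 to 0.1001). *Inha* went the same way in WT_ASO against WT_PBS, from 6.17 ± 1.75 to 10.1 ± 4.96 CPM (log2FC 0.71, SE 0.28, edgeR adjusted P = 0.736). Its interaction was 0.45 (SE 0.40, edgeR adjusted P = 0.701), so the effect of ASO1 was not shown to differ between genotypes. Of 4 further receptor genes tested, 0 were called by edgeR in either comparison, with 1 at an unadjusted P under 0.05 in each, where 27.3% and 17.7% of all genes were. DESeq2 called 0 and limma-voom 0 between the saline groups, and DESeq2 called 1, *Acvr1b*, and limma-voom 0 in KO_ASO against KO_PBS.

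Among 11 intracellular genes, 1 rose and 1 fell in KO_PBS, a count to be read against 12.6% of all genes called, and the median log2FC was -0.16. *Tgif1*, a corepressor of SMAD proteins, rose from 3.83 ± 0.263 to 7.70 ± 1.71 CPM (log2FC 1.01, SE 0.21, edgeR adjusted P = 0.00498). *Zfyve9*, whose product SARA presents SMAD2 and SMAD3 to the receptor, fell from 113 ± 5.94 to 79.1 ± 5.86 CPM (log2FC -0.51, SE 0.10, edgeR adjusted P = 0.00316) and rose to 106 ± 13.6 CPM in KO_ASO (log2FC 0.43, SE 0.10, edgeR adjusted P = 0.0251). *Skil*, another corepressor of SMADs, rose in KO_ASO against KO_PBS from 15.1 ± 0.679 to 23.4 ± 5.34 CPM (log2FC 0.63, SE 0.14, edgeR adjusted P = 0.0251). The KO_ASO call of *Zfyve9* was lost without replicate 1, 3 or 4 of KO_PBS or 1, 2 or 3 of KO_ASO (0.0539 to 0.102), and that of *Skil* without replicate 1 or 4 of KO_PBS or 1 of KO_ASO (0.0550 to 0.0905). Both calls were also lost with only the groups compared fitted (0.0618). The genes for SMAD2, SMAD3, SMAD4 and SMAD7 were not called by edgeR in these comparisons, and DESeq2 called *Smad7* in KO_ASO against KO_PBS. Limma-voom called 4 of the 11 intracellular genes between the saline groups (*Smad4*, *Smurf2*, *Tgif1* and *Zfyve9*) and 5 in KO_ASO against KO_PBS (*Smad4*, *Smad7*, *Smurf2*, *Skil* and *Zfyve9*). It called 18.0% and 7.95% of all genes there.

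Of 11 genes known as targets of TGF-beta, 2 rose and 1 fell in KO_PBS, with a median log2FC of 0.57. DESeq2 called 3 and limma-voom 4 of the 11, and the shares of all genes were 12.6% by edgeR, 8.34% by DESeq2 and 18.0% by limma-voom. The gene at that median was *Col1a1*, which was not called (edgeR adjusted P = 0.608) and is also among the 7 fibroblast markers, of which 4 were called higher in KO_PBS. The part of fibroblasts in the values of this list was not tested. *Ccn2*, encoding a matricellular growth factor, rose from 16.3 ± 1.73 to 43.7 ± 22.0 CPM (log2FC 1.42, SE 0.38, edgeR adjusted P = 0.0249). *Tagln*, a smooth muscle actin-binding gene, fell from 42.2 ± 5.47 to 30.1 ± 1.87 CPM (log2FC -0.49, SE 0.13, edgeR adjusted P = 0.0258), a call lost with library totals as the only scaling (0.159). The 5 smooth muscle and pericyte markers summed to 693 ± 52.8 CPM in WT_PBS and 583 ± 83.4 in KO_PBS with a median log2FC of -0.29, and their part in the *Tagln* value was not tested. With 1 sample left out, the call of *Ccn2*, which was also lost without a filter on low counts (0.074), was lost without any 1 of the WT_PBS samples or replicate 1 or 2 of KO_PBS (0.0541 to 0.0933), and that of *Tagln* without replicate 1, 3 or 4 of WT_PBS or 1 or 2 of KO_PBS (0.0586 to 0.0837). In KO_ASO against KO_PBS the median log2FC of the targets was -0.60, and 0 of 11 were called by edgeR, DESeq2 or limma-voom, with 2 at an unadjusted edgeR P under 0.05 (17.7% of all genes).

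In the BMP branch, which signals through other SMADs and in muscle acts against loss of mass, 1 of 21 tested genes rose and 2 fell in KO_PBS, with a median log2FC of -0.11. That count stands beside 12.6% of all genes, and DESeq2 called 5 of the 21 and limma-voom 6, beside 8.34% and 18.0%. In KO_ASO against KO_PBS edgeR called 2 of the 21, DESeq2 3 and limma-voom 4, beside 3.64%, 3.52% and 7.95% of all genes. *Nog*, a BMP antagonist, fell from 2.51 ± 0.516 to 1.097 ± 0.335 CPM (log2FC -1.19, SE 0.25, edgeR adjusted P = 0.00499) and rose in KO_ASO to 2.17 ± 0.641 CPM (log2FC 0.98, SE 0.25, edgeR adjusted P = 0.0393). *Gdf5*, a ligand of this branch, rose from 0.179 ± 0.0621 to 0.624 ± 0.307 CPM (log2FC 1.75, SE 0.52, edgeR adjusted P = 0.0378). The other gene that fell was the ligand *Bmp6*, named after its values were seen. *Chrd*, a further antagonist, fell in KO_ASO from 5.41 ± 0.565 to 4.04 ± 0.262 CPM (log2FC -0.42, SE 0.11, edgeR adjusted P = 0.0481). With 1 sample left out, the KO_ASO call of *Nog* was lost without replicate 1 or 3 of KO_PBS or 1, 2 or 3 of KO_ASO (0.0711 to 0.133), that of *Chrd* without replicate 1, 3 or 4 of KO_PBS or 1, 2 or 3 of KO_ASO (0.0826 to 0.127), and that of *Gdf5* without any 1 of the WT_PBS samples or replicate 1 or 4 of KO_PBS (0.0634 to 0.144). With only the groups compared fitted, the KO_ASO calls of *Nog* (0.103) and *Chrd* (0.111) were lost as well, and that of *Chrd* also without a filter on low counts (0.159). In WT_ASO against WT_PBS, 0 of the 68 listed genes were called by edgeR, DESeq2 or limma-voom, and 6 had an unadjusted edgeR P under 0.05, as did 6.45% of all genes. For the interaction edgeR called 0 of the 68, limma-voom 0 and DESeq2 3 (*Eng*, *Ltbp3* and *Nog*), and 21 had an unadjusted edgeR P under 0.05. Over all genes these shares were 0.575%, 0.722%, 1.25% and 12.7%, in that order.

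**Figure D5:**
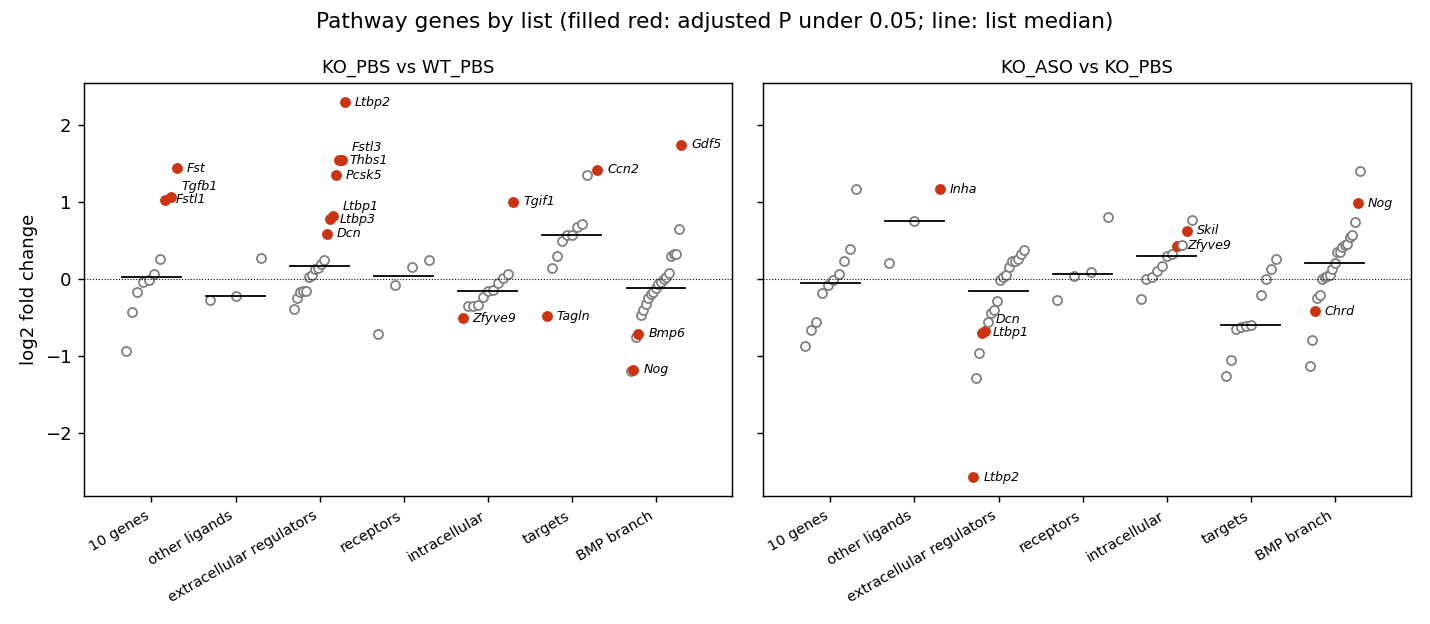
Fitted log2 fold changes of the 10 genes and of the other tested genes by list, for KO_PBS against WT_PBS (left) and KO_ASO against KO_PBS (right), with list medians over all tested genes as lines and 1 target gene not drawn. Red points with names mark an edgeR adjusted P under 0.05, 7 of 18 among the extracellular regulators on the left and 3 of 18 on the right.

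The genes with the most similar profiles were found for *Mstn*, *Fst* and *Tgfb1* by the root mean square (RMS) difference of standardised log2 CPM over the 16 samples. The closest of all tested genes lie below the median over genes by the way they were selected, and the values are given without a test. For *Mstn* they were *Atl2* (RMS 0.401), *Metap2* (0.412) and *Arf1* (0.419), against a median over genes of 1.43. *Atl2* stood at 264 ± 31.6 CPM in WT_PBS, 181 ± 33.8 in KO_PBS and 251 ± 13.3 in KO_ASO. For *Fst* they included *Klf5* (0.408) and *Pvr* (0.414), against a median of 1.41. *Klf5* stood at 1.60 ± 0.206 CPM in WT_PBS, 6.93 ± 2.14 in KO_PBS and 2.75 ± 0.529 in KO_ASO. For *Tgfb1* they were *Shisal1* (0.355), *Acox2* (0.368) and *Tmbim4* (0.374), against a median of 1.40. *Shisal1* stood at 0.752 ± 0.408 CPM in WT_PBS, 5.51 ± 1.08 in KO_PBS and 1.81 ± 0.441 in KO_ASO. None of the 10 genes was among these closest profiles.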

How the data were processed

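RNA was sequenced from 16 tibialis anterior samples in 4 groups of 4, as the labels give them. The authors deposited raw counts per Ensembl gene without normalization. Their processing notes, as GEO holds them, list HTSeq 0.6.1p1, STAR 2.5.3a, Bowtie2 2.2.8 and cutadapt 1.10 with GRCm38 (mm10). The sources used here give neither the role of each tool nor the annotation release and strand setting, so reads of overlapping genes on opposite strands may be mixed. Symbols and coordinates came from GENCODE M21 on GRCm38, to which all 29730 identifiers matched, and upstream sequences from RefSeq on GRCm38.p6.

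Genes were filtered with filterByExpr, scaled with TMM and fitted with the robust quasi-likelihood test of edgeR 4.0.16 under R 4.3.3, with 1 mean per group over all 16 samples. Benjamini-Hochberg adjustment of P values ran over 14960 genes, with a threshold of 0.05. The common coefficient of biological variation was 18.7%. The SE of a log2FC is the absolute log2FC over the root of F, and its 95% interval is 1.96 SE to each side. CPM means were tested with two-sided exact permutation tests. The fit was tested on simulated counts.

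The 10 genes and all gene lists were chosen with earlier results of these data known. Beside the 10 genes, the text names the 3 genes of each list with the smallest P among those called in KO_PBS vs WT_PBS, KO_ASO vs KO_PBS or the interaction, and exceptions are stated. Some genes that this rule or the profile comparison selected are not reported here. Fits with DESeq2 1.42.0, limma-voom with quality weights (limma 3.58.1), size factors of DESeq2, library totals only, no filter, only the groups compared, a replicate block and each sample left out were computed beside the main one.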

Additional observations from a re-analysis of the deposited data

Results flagged for a closer look

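In groups of 4 samples, 1 sample was far from the other 3, by the gap to its neighbour relative to the range of the group (Dixon's criterion at the 95% level), in 7 of 92 groups examined and in 3 of 40 for the 10 genes. Chance alone gives about 1 in 20. For *Mstn*, replicate 2 of WT_PBS stood high at 48.7 CPM, and replicate 1 of KO_PBS stood low at 9.24 CPM. The log2FC of KO_PBS against WT_PBS was -0.54 without the former. *Tgfb1* was high in replicate 4 of WT_ASO, at 4.61 CPM. Among the other named genes, *Ltbp3* was high in replicate 3 of WT_ASO at 93.0 CPM, *Ltbp2* was high in replicate 1 of KO_PBS at 6.70 CPM, *Tagln* was low in replicate 2 of WT_PBS at 34.0 CPM, and *Chrd* was low in replicate 1 of WT_PBS at 3.69 CPM. Replicate 2 of WT_PBS and replicate 1 of KO_PBS each appear for 2 genes. No interaction was called for the 10 genes by edgeR, DESeq2 or limma-voom, and 1 of them, *Fst*, had an unadjusted edgeR P under 0.05.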

How the results depend on the processing

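The count of 3 DEGs among the 10 genes between the saline groups ran from 2 to 4 over the alternatives, with *Fst* and *Tgfb1* called in all of them, and the counts of 0 in comparisons without KO_PBS and for the interaction did not move. In KO_ASO against KO_PBS the count of 0 became 2 with DESeq2, 2 with limma-voom, 1 with only the groups compared and 0 to 1 with a sample left out, *Fst* without replicate 3 of KO_PBS and *Fstl1* without replicate 4 of KO_ASO. The cause was not tested. With the replicate number as a block the count was 1 (*Mstn*). Samples share only a number in the labels, and the correlations of deviations within a number ran from -0.0777 to 0.435. Of 16 samples, 14 correlated best with a sample of their own number, although each other group held only 1 such sample among its 4. This is a pattern in the data and not a stated design, and the main fit and the permutation tests did not use it. Over all genes, the block called 2322 in place of 1878 in KO_PBS against WT_PBS and 752 in place of 544 in KO_ASO against KO_PBS.

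Over single genes, 1086 alternative values kept their direction and side of the threshold, 66 lost a call, 11 gained one and 47 changed sign, and the cause was not tested. None of the last belonged to a call. Library totals alone shift the median of all genes in KO_PBS against WT_PBS to 0.14 and the DEGs of that comparison from 1112 higher and 766 lower to 1942 and 260. They gave log2FCs of 0.11 for *Gdf11* and 0.14 for *Inhba* in that comparison, -0.026 for *Acvr2b* in KO_ASO against KO_PBS and -0.0077 for *Tgfb3* in WT_ASO against WT_PBS. Limma-voom gave 0.038 for *Gdf11* and -0.0010 for *Tgfb2* in KO_PBS against WT_PBS, 0.050 for *Tgfb2* in KO_ASO against KO_PBS and 0.046 for *Tgfb1* in WT_ASO against WT_PBS. The replicate block gave 0.018 for *Inhba* between the saline groups and 0.0062 for *Tgfb2* in KO_ASO against KO_PBS.

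With 1 sample left out, log2FCs changed sign as follows. In KO_PBS against WT_PBS the range was -0.15 to 0.13 for *Gdf11*, -0.20 to 0.16 for *Inhba* and -0.075 to 0.18 for *Tgfb2*. In KO_ASO against KO_PBS it was -0.15 to 0.082 for *Inhba*, -0.10 to 0.083 for *Tgfb2* and -0.085 to 0.21 for *Acvr2b*. In WT_ASO against WT_PBS it was -0.21 to 0.067 for *Gdf11*, -0.22 to 0.14 for *Tgfb1*, -0.040 to 0.15 for *Tgfb3*, -0.23 to 0.029 for *Acvr2a* and -0.11 to 0.048 for *Acvr2b*. In KO_ASO against WT_PBS it was -0.28 to 0.077 for *Inhba*, -0.090 to 0.17 for *Tgfb2*, -0.014 to 0.18 for *Tgfb3*, -0.086 to 0.55 for *Fstl1* and -0.058 to 0.16 for *Acvr2a*. In KO_ASO against WT_ASO it was -0.46 to 0.059 for *Mstn* and -0.041 to 0.10 for *Tgfb3*, and for the interaction -0.052 to 0.24 for *Acvr2b*. Depth limits *Inhba*, *Fst* and *Acvr2b* most, with at most 32, 208 and 77 counts per sample.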
